A study of Homo sapiens with 4 samples.

Results

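The loci of 10 genes for basic leucine zipper (bZIP) transcription factors were examined for binding of CEBPB in NCM460, an epithelial cell line derived from human colon mucosa. The genes were the FOS family (FOS, FOSB, FOSL1 and FOSL2), the JUN family (JUN, JUNB and JUND), and ATF3, BATF and MAFF. A site belonged to a locus when it lay within 100 kb of the transcription start of its gene on the hg19 build, with starts given to the nearest 1 kb. The study ran 2 CEBPB ChIP samples (an anti-CEBPB antibody on sonicated nuclei), described as independently repeated, and 2 input samples of the same cells as controls. The labels name no treatment, genotype or time for any of the 4 samples, so no conditions could be compared, and the findings are those of 1 cell line. Each ChIP sample had its own peak list called over input, and a joint table gave the irreproducible discovery rate (IDR). The IDR is estimated from the ranks of a peak in both replicates and is low for peaks that rank high in both. Whether the cells carried colon markers could not be read from peak lists.

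Within these windows lay 185 of 80530 summits of replicate 1 and 213 of 104307 summits of replicate 2 on chromosomes 1 to 22 and X. Regions in the authors' deposited table at an IDR of at most 0.05, called reproducible here, numbered 46 of 25602, and each of the 10 loci held at least 1. The strength of a site is given as the authors' fold enrichment over input, and as the ChIP fragments at the summit beside the input background, in expected fragments. Fragments and background were recovered from the deposited fold and p-value. The background is expressed on the scale of the peak caller, on which its lowest possible value was 1.00 in replicate 1 and 1.36 in replicate 2. The median over all summits was 24 fragments in replicate 1 and 28 fragments in replicate 2. Errors are SDs over these 2 samples, and unlabelled pairs of values give replicate 1 and then replicate 2.

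AP-1 is a family of dimers in which a JUN protein pairs with a FOS, ATF, BATF or JUN protein through the leucine zipper. The dimer reads the DNA through the basic region. C/EBP proteins, of which CEBPB is a member, belong to the same structural class, prefer palindromes related to TTGCGCAA, and can pair with some ATF and AP-1 proteins. In epithelia, AP-1 genes are known as immediate responders to growth factors, cytokines and stress, and CEBPB acts in many of the same responses.

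The 10 loci held 23 reproducible regions per Mb (95% exact Poisson interval 16.8 to 30.7), against 8.44 per Mb over chromosomes 1 to 22 and X (interval 8.33 to 8.54). FOSB had 8 regions, FOS and FOSL2 had 7 each, JUND and MAFF 5, JUNB and ATF3 4, BATF 3, JUN 2 and FOSL1 1. The Poisson interval of the highest count, 3.45 to 15.8 at FOSB, overlapped that of the lowest, 0.0253 to 5.57 at FOSL1. Of 15183 bins of 200 kb, 59.2% held a reproducible region, with a median of 1 and an upper quartile of 3. Bins with fewer regions than the locus made up 97.9% of all bins for FOSB, 96.3% for FOS and FOSL2, 59.6% for JUN and 40.8% for FOSL1. The bins are not centred on genes, so this comparison sets gene neighbourhoods beside the whole genome and was given no test.

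The input moved in the same direction as the density. The median background at summits of the loci was 2.91 expected fragments in replicate 1 and 3.00 in replicate 2, against 2.14 and 2.20 over all summits. Only 2.16% of the summits at the loci in replicate 1 and 6.10% in replicate 2 had the lowest background, against 10.8% and 17.04% of all summits. The part of the background in the density was not tested.

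**Figure D1:**
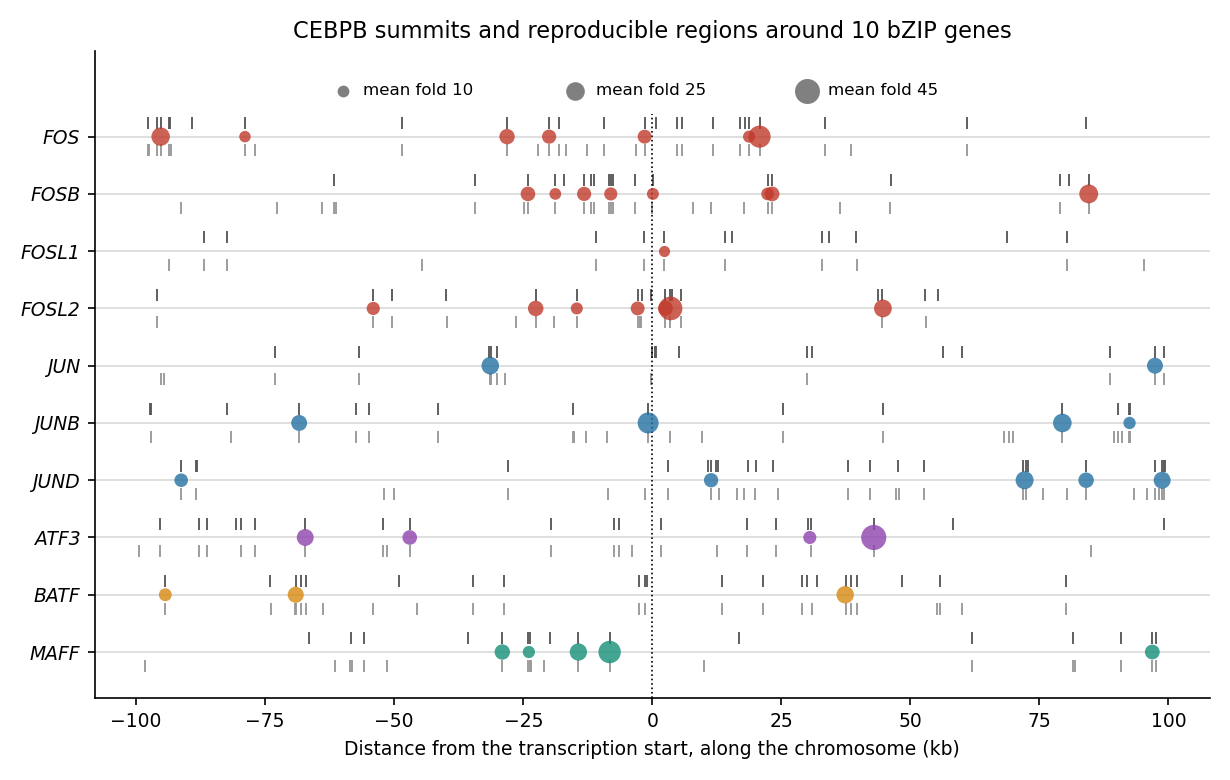
Positions of CEBPB sites around the 10 transcription starts, as distance along the chromosome in kb (horizontal axis), one row per gene. Circles are reproducible regions, with area proportional to the mean fold of the replicates, and ticks above and below each row are summits of replicate 1 (dark) and replicate 2 (light). Circles gather near the start at FOSL2, run in a chain on the low side of FOSB and lie far from the given start at JUN, ATF3 and BATF.

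**Figure D2:**
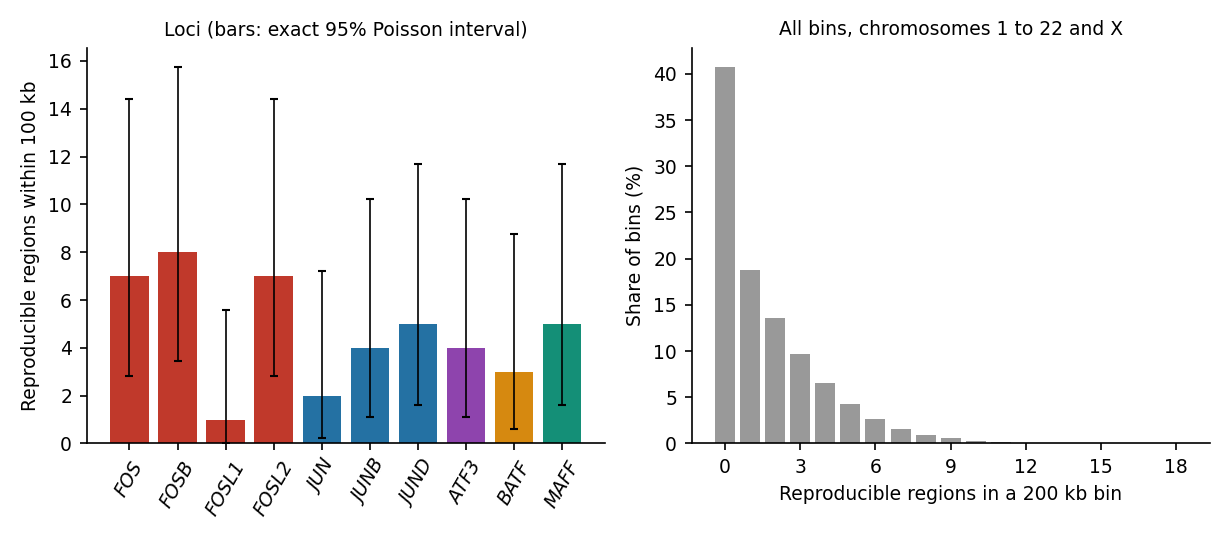
Left, number of reproducible regions within 100 kb of each start, coloured by family, with exact 95% Poisson intervals. Right, share of 200 kb bins of chromosomes 1 to 22 and X by the number of regions they held. The loci held 1 to 8 regions, and the median bin held 1.

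Distance from the start was uneven. Within 5 kb lay 7 regions at 5 loci, FOS, FOSB, FOSL1, FOSL2 and JUNB, which is 70.0 per Mb. FOSL2 alone had 3 of these 7. The next 5 kb held 2 regions (20.0 per Mb), and the stretch from 10 to 25 kb held 13 at 5 loci (43.3 per Mb). These 13 include the FOSB regions at 13.2, 18.8, 22.3, 23.2 and 24.1 kb. The stretch from 25 to 50 kb held 8 (16.0 per Mb). Beyond, 5 regions lay between 50 and 75 kb and 11 between 75 and 100 kb, which is 10.0 and 22 per Mb. Regions around all gene starts were not counted, so this pattern is not shown to be particular to these genes. JUN, JUND, ATF3 and BATF had no reproducible region within 10 kb of the given start. ATF3 has a second start, which is set beside its regions below.

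At the FOS locus CEBPB bound on both sides of the gene, most strongly downstream. FOS is the classic immediate early gene and the first partner described for JUN. The strongest region lay 20.8 kb downstream of the start (chromosome 14, 75765395 to 75766169), with 261 ChIP fragments in replicate 1 and 291 in replicate 2 over an input background of 5.36 and 6.24. This is the tallest of the 46 regions in both replicates, and its fold was 35.2 ± 4.19 (SD, n = 2). A weaker region lay at 18.7 kb, with a mean fold of 10.6. Nearest to the start, 1.48 kb upstream (75743258 to 75743775), 53 and 70 fragments gave folds of 14.5 and 13.5. At 95.3 kb upstream (75649444 to 75650051) a region of 206 and 240 fragments reached a fold of 24.4 ± 4.22 (SD, n = 2). The other 3 regions, 20.0 to 78.9 kb upstream, had mean folds from 9.52 to 16.9. No other protein-coding gene overlaps the 100 kb on either side of FOS in the RefSeq table for GRCh38.p14; no site is assigned to a gene here.

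FOSB, which encodes a FOS relative that is known from rodents for a truncated form that accumulates in stimulated neurons, had the most regions, most of them of modest fold. A chain of 5 regions reached from 24.1 kb upstream to the start itself, at 24.1, 18.8, 13.2, 8.04 and 0.119 kb, and each lay less than 10 kb from the next. Their mean folds were 15.3, 9.94, 14.5, 12.49 and 10.3. The region at the start (chromosome 19, 45970895 to 45971343) had 30 fragments in replicate 1 and 39 in replicate 2 over backgrounds of 1.44 and 2.65, and its fold was 10.3 ± 2.12 (SD, n = 2). FOSB was thereby the one locus with a reproducible region within 0.5 kb of the given start, which is as fine as its rounding allows. That region was weak, ranked 22774 of 25602 by mean fold, with an IDR of 0.0364. The strongest region was 84.6 kb downstream (46055351 to 46055756), with 66 and 111 fragments and a fold of 25.7 ± 3.56 (SD, n = 2). A pair at 22.3 and 23.2 kb downstream had mean folds of 11.7 and 15.6, the second of them with 21 fragments in replicate 1 and 61 in replicate 2 (adjusted p = 0.0918, two-sided exact binomial test over all 25602 regions).

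Because the FOSB peak sits at the start, the 250 bases before the RefSeq start are shown, from GRCh38.p14 (chr19:45467746-45467995, plus strand), with capitals for a match to TTNNGNAA, a relaxed form of the C/EBP palindrome. The match spans positions -89 to -82 from the start. Of 35116 RefSeq promoters, 33.2% hold that pattern on either strand in this window, so it is common. Neither the full C/EBP palindrome TTGCGCAA (0.131% of promoters), which TTNNGNAA would include, nor the AP-1 element TGANTCA (6.57%) nor the cyclic AMP response element TGACGTCA (1.65%) was found there. The peak coordinates are hg19, and the summit was not placed on this sequence.

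FOSB: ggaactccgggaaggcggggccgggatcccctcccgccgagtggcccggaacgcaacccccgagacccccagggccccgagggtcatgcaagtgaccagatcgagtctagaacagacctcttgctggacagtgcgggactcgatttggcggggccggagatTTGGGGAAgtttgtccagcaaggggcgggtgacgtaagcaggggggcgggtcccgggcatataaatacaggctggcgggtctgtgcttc

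FOSL1, which encodes FRA-1, a FOS protein prominent in migrating and transformed epithelial cells, had the fewest summits and reproducible regions, and its strongest region was the weakest of the 10. Its only region (chromosome 11, 65670216 to 65670507) lay 2.36 kb from the start on the side of higher coordinates, with 40 fragments in replicate 1 and 69 in replicate 2 over backgrounds of 3.52 and 4.84. The fold of 9.02 ± 0.851 (SD, n = 2) ranked 25352 of 25602. Each replicate had 12 summits at the locus, 9 of them with a partner within 100 bp, against 79.0% of all summits in replicate 1 and 61.0% in replicate 2. The largest summit fold at FOSL1 was 9.19 in replicate 1 and 10.2 in replicate 2. The RefSeq table lists 13 other protein-coding genes within 100 kb of FOSL1, against none for FOS. Across the 10 loci the number of regions and of neighbouring genes had a Spearman rho of -0.192 (n = 10, a description over loci of 1 genome).

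FOSL2, which encodes FRA-2, had the most reproducible regions within 5 kb of its start. Of its 7 regions 3 lay within 5 kb, at 2.83 kb upstream and at 2.54 and 3.53 kb downstream. The last of these (chromosome 2, 28619194 to 28619869) had 201 fragments in replicate 1 and 210 in replicate 2. Its input background was 2.295 in replicate 1 and 6 in replicate 2, and the fold was 56.8 in replicate 1 and 24.1 in replicate 2. The mean fold of 40.5 ± 23.1 (SD, n = 2) ranked 689 of all regions. The region 2.54 kb downstream (28618301 to 28618775) went the other way, with a fold of 9.65 in replicate 1 over a background of 4 and 22.5 in replicate 2 over 2.50, on 51 and 97 fragments. A region 44.7 kb downstream (28660442 to 28660925) had 117 and 147 fragments and a fold of 22.8 ± 1.29 (SD, n = 2). The remaining 4 regions, 2.83 to 54.1 kb upstream, had mean folds from 10.4 to 17.3.

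At JUN, the founding AP-1 gene, whose product can pair with itself and acts on its own promoter, reproducible binding lay far from the start. The nearer region was 31.4 kb downstream (chromosome 1, 59218225 to 59218996), with 95 fragments in replicate 1 and 132 in replicate 2 over backgrounds of 2.03 and 6, and a fold of 22.3 ± 9.98 (SD, n = 2). The other, 97.4 kb upstream (59347160 to 59347614), had 189 fragments in replicate 1 and 146 in replicate 2. It is the 1 region of the 46 called with more fragments in replicate 1 than expected for its height (adjusted p = 0.0152, two-sided exact binomial test), and 1.69% of all regions were called in that direction. At the start itself both lists held a weak summit outside the IDR table, 0.134 kb from it in replicate 1 with a fold of 4.02 and 0.24 kb in replicate 2 with 3.72. These summits had 38 and 36 fragments over backgrounds of 8 and 7. They lay 106 bp apart, just beyond the 100 bp that counts as a partner here. Replicate 1 had 2 more summits within 1 kb of the JUN start, at 0.594 and 0.761 kb with folds of 2.79 and 4.32, and neither had a partner in replicate 2.

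The JUN start thus had nearby summits that did not enter the reproducible set, and its promoter is shown beside that of FOSB. The 250 bases before the RefSeq start (GRCh38.p14, chr1:58784048-58784297, minus strand) held no exact match to the 4 motifs, and hence no capitals. The stretch tgacatca in them differs from TGACGTCA at a single base, and inexact matches were not searched.

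JUN: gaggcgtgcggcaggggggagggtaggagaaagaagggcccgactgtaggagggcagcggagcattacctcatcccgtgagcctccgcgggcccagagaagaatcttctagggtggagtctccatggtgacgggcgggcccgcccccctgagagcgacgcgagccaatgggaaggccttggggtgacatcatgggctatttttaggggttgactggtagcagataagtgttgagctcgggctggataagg

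JUNB, whose product often counters JUN on shared targets, had a region close to its given start that was in the strongest 10% of all regions. The region 0.802 kb upstream (chromosome 19, 12901015 to 12901381) had 132 fragments in replicate 1 and 136 in replicate 2 over backgrounds of 2.45 and 3.00, and a fold of 31.6 ± 5.88 (SD, n = 2), rank 2194. It was the strongest region of the locus as well as the nearest. A region 79.4 kb downstream (12981223 to 12981663) had 91 and 141 fragments and a fold of 24.9 ± 5.03 (SD, n = 2). The others, 68.4 kb upstream and 92.5 kb downstream, had mean folds of 18.3 and 10.9. JUNB lies in a crowded neighbourhood, with 14 other protein-coding genes within 100 kb in the RefSeq table.

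JUND, the most broadly and steadily expressed JUN gene and a partner of menin, had many summits, 24 in replicate 1 and 30 in replicate 2, but its 5 regions lay mostly far upstream. The strongest, 72.1 kb upstream (chromosome 19, 18463632 to 18464624), had 81 fragments in replicate 1 and 164 in replicate 2 over backgrounds of 2.096 and 5, and a fold of 23.3 ± 1.80 (SD, n = 2). Here the fold was steady and the fragments were not: replicate 2 had more than expected for the height (adjusted p = 0.0134, two-sided exact binomial test). Regions at 84.0 and 98.8 kb upstream had mean folds of 17.3 and 20.8, and that at 98.8 kb (18490104 to 18491451) was the widest of the 46 at 1348 bp with 3 summits in each replicate. The remaining region was 91.3 kb downstream, with a mean fold of 13.3. Nearest to the start, 11.4 kb upstream (18403195 to 18403594), 69 and 104 fragments gave folds of 15.4 and 14.03. A summit 2.97 kb upstream in replicate 1 recurred 8 bp away in replicate 2 with folds of 7.79 and 6.87, outside the IDR table.

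Among the 9 members with a promoter sequence, which leaves out FOSL1, only JUND and MAFF held the whole palindrome TGACGTCA. MAFF has 2 RefSeq starts, and the promoter of the other start held none of the motifs. Neither gene had a summit within 1 kb of its given start. These promoters are shown with capitals for the palindrome, which spans positions -200 to -193 at JUND (GRCh38.p14, chr19:18281623-18281872, minus strand) and -54 to -47 at MAFF (GRCh38.p14, chr22:38201744-38201993, plus strand). The promoters of FOS, FOSL2 and JUNB, which had a region within 5 kb, held none of the motifs, nor did that of BATF, which had none. The second ATF3 start also had a match to TTNNGNAA. A link of motif to binding was not tested. No summit within 1 kb says nothing on what else binds there.

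JUND: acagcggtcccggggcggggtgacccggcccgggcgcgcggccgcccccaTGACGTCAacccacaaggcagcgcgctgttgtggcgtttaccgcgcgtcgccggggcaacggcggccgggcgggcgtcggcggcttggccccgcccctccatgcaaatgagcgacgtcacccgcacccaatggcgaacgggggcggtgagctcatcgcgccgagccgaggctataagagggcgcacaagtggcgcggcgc

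MAFF: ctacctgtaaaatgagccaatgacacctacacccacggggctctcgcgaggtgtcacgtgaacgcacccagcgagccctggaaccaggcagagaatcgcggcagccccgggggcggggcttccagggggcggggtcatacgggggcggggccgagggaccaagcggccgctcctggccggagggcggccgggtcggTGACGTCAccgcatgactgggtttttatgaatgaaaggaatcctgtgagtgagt

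ATF3, a stress-induced bZIP protein that represses as a homodimer and pairs with JUN proteins, had the strongest region of all 10 loci. It lay 42.9 kb downstream of the start (chromosome 1, 212781604 to 212782202), with 192 fragments in replicate 1 and 216 in replicate 2 over backgrounds of 2.75 and 3.00. The folds of 47.7 and 43.4 were close, with a mean of 45.5 ± 2.99 (SD, n = 2), rank 319 of 25602. RefSeq lists a second ATF3 start 49.6 kb downstream of the first in GRCh38.p14. If the first is the given start and the spacing holds in hg19, the strongest region, at 42.9 kb, lies nearer to the second. Neither condition was examined here. The region nearest to the given start, 30.5 kb downstream (212769075 to 212769953), had 53 and 73 fragments and a mean fold of 12.4. Upstream regions at 47.0 and 67.2 kb had mean folds of 15.4 and 20.6. Both had fewer fragments in replicate 2: 81 in replicate 1 and 61 in replicate 2 at 47.0 kb, and 77 and 60 at 67.2 kb. Neither passed the test after adjustment (adjusted p = 0.0536 and 0.0776, two-sided exact binomial test). A summit 1.70 kb downstream occurred in both lists with folds of 8.35 and 7.36, on 53 and 41 fragments, but was not in the IDR table.

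BATF, which pairs with JUN proteins and interferon regulatory factors in lymphocytes, had 22 summits in replicate 1 and 24 in replicate 2 and 3 reproducible regions, none near the start. The strongest, 37.4 kb downstream (chromosome 14, 76026052 to 76026693), had 168 fragments in replicate 1 and 193 in replicate 2 over backgrounds of 4.28 and 10.0, and folds of 29.6 and 14.1. The region 69.1 kb upstream (75919484 to 75920359) had the same form, with 153 and 163 fragments, backgrounds of 4.90 and 9.00 and folds of 24.2 and 13.1. The third was 94.3 kb upstream, with a mean fold of 12.0. The neighbours of BATF within 100 kb in the RefSeq table are JDP2, a bZIP repressor of AP-1, and FLVCR2. Within 2 kb upstream of the start, replicate 1 had summits of fold 5.57 and 9.75 and replicate 2 a summit of fold 5.63, none of them in the IDR table. The summits of fold 5.57 and 5.63 lay 16 bp apart. A summit 2.62 kb upstream in replicate 1 recurred 11 bp away in replicate 2 with folds of 6.27 and 5.10, also outside the IDR table.

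MAFF, a small MAF protein without an activation domain that pairs with CNC factors such as NRF2, had its regions in a row upstream. They lay 29.1, 23.9, 14.3 and 8.26 kb before the start, with mean folds of 16.98, 10.8, 21.6 and 36.2, and the fold was highest at the nearest. That region (chromosome 22, 38589485 to 38589988) had 109 fragments in replicate 1 and 105 in replicate 2. Its background was the lowest possible, 1.00, in replicate 1 and 2.96 in replicate 2, and the folds were 50.9 and 21.4. The remaining region lay 96.9 kb downstream with a mean fold of 15.8. No summit of either replicate lay within 5 kb of the MAFF start.

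Ordered by their strongest region, the loci ran ATF3 (45.5), FOSL2 (40.5), MAFF (36.2), FOS (35.2), JUNB (31.6), FOSB (25.7), JUND (23.3), JUN (22.3), BATF (21.9) and FOSL1 (9.02). The ranges of the replicates overlapped between each locus and the next in this order except between BATF and FOSL1. The fragments at these regions gave another order, with FOS first at 261 and 291 and FOSL2 and ATF3 next.

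**Figure D3:**
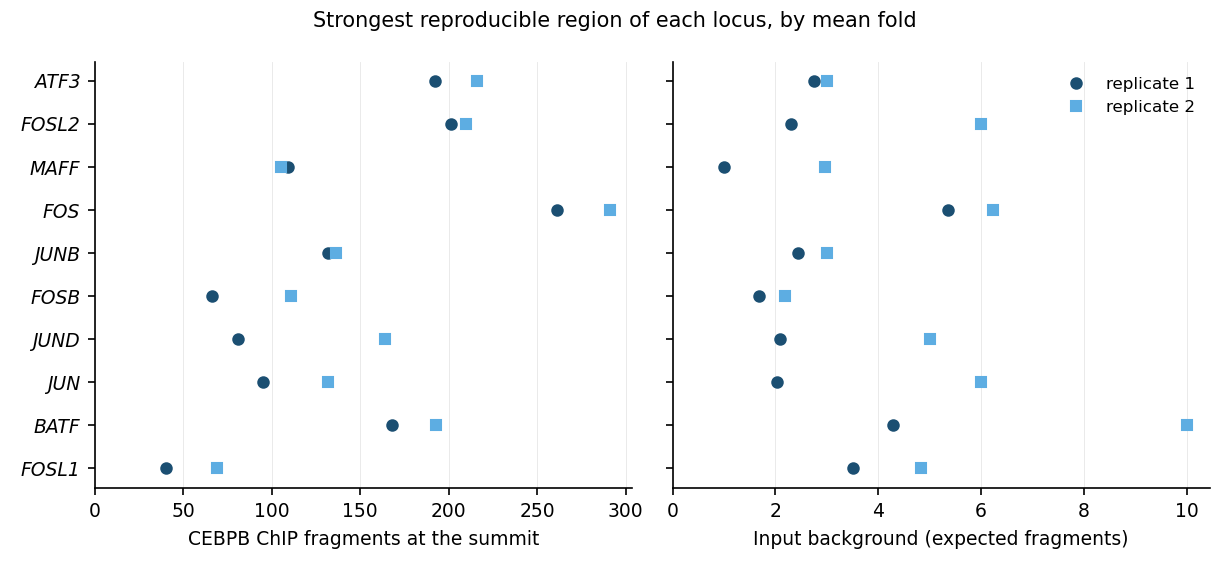
Strongest reproducible region of each locus, ordered by mean fold. Left, CEBPB ChIP fragments at the summit, and right, input background in expected fragments, for replicate 1 (circles) and replicate 2 (squares). At FOSL2 and MAFF the unscaled ChIP fragments of the replicates nearly coincide (201 and 210, 109 and 105), and the backgrounds do not (2.295 and 6, 1.00 and 2.96). Over all regions the median was 58 fragments in replicate 1 and 77 in replicate 2, so equal counts are not equal ChIP signal. The part of each quantity in the fold was not tested.

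Over the 46 regions the fold was ordinary for the series. The mean fold had a median of 15.9 (upper quartile 21.8) at the loci, against 15.8 (upper quartile 22.4) over all 25602 regions. In the strongest 10% of all regions were 5 of the 46, those of ATF3, FOSL2, MAFF, FOS and JUNB. Fragments were higher at the median, 66.5 in replicate 1 and 89.5 in replicate 2, against 58 and 77 over all regions, and so was the background, 2.53 and 3.24 against 2.18 and 2.70. At an IDR of at most 0.01 were 30 of 46 regions (65.2%, 95% exact binomial interval 49.8 to 78.6%), against 60.6% of all regions. Summits of the replicates lay within 50 bp of each other in 44 of 46 regions (95.7%), against 97.9% of all regions.

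Most summits at the loci recurred, as elsewhere. In replicate 1, 139 of 185 summits (75.1%, interval 68.3 to 81.2%) had a replicate 2 summit within 100 bp, against 79.0% of all its summits. In replicate 2, 140 of 213 (65.7%, interval 58.9 to 72.1%) had a partner, against 61.0%. Of the peak intervals holding these summits, 47 of 173 in replicate 1 (27.2%, interval 20.7 to 34.4%) and 47 of 197 in replicate 2 (23.9%, interval 18.1 to 30.4%) were in the IDR table, against 34.2% and 26.3% of all intervals. The intervals of all 4 shares include the value over all sites. A window of 25 kb centred on the region held another reproducible region for 25 of the 46 (54.3%, interval 39.0 to 69.1%), against 39.5% of all regions. Of these 25 regions 7 were at FOSB, 5 at FOSL2, 5 at MAFF, 4 at FOS, 2 at JUND and 2 at ATF3. The interval of the 54.3% includes 39.5%, the share of all regions. Within 5 kb, 6 of the 46 regions had another (13.04%), against 21.3% of all regions. No interval was computed at that distance. Intervals cover counting error only, and neighbouring sites are not independent.

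Fragments differed between the replicates by more than counting noise at 2 of the 46 regions, those at JUN and JUND (4.35%, interval 0.531 to 14.8%), against 2.93% of all regions called by the same test. At an unadjusted p under 0.05 were 9 of 46, against 16.4% of all regions. The folds of the replicates were more than 1.5 times apart at 9 of the 46 regions, against 29.7% of all. Of these 9, 0 were called by their fragments, against 475 of 7592 such regions in the whole table. In 8 of the 9 the replicate with the higher fold had the lower background, as in 6636 of the 7592, so the loci were ordinary in this. The fold is computed from both quantities, and the part of each was not tested.

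**Figure D4:**
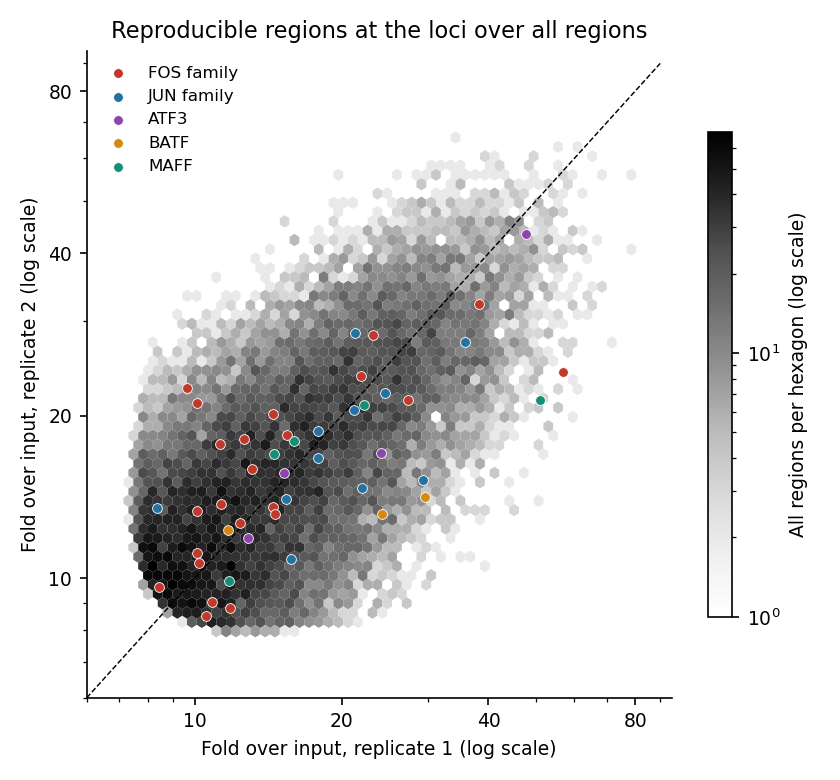
Fold over input in replicate 1 (horizontal, log scale) and replicate 2 (vertical, log scale) for the 46 reproducible regions at the loci, coloured by family, over all 25602 reproducible regions (grey hexagons, darker for more regions). The dashed line marks equal folds. The coloured points lie within the grey cloud or at its edge, and FOSL2 (56.8 and 24.1) and MAFF (50.9 and 21.4) lie farthest below the line among the strong sites.

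The window of 100 kb is arbitrary. The outermost regions inside it were at 98.8 kb (JUND, mean fold 20.8), 97.4 kb (JUN, 18.4) and 96.9 kb (MAFF, 15.8), and the first outside were at 102.2 kb (MAFF, 12.9), 109.7 kb (JUNB, 16.5) and 110.9 kb (JUND, 23.7).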

How the data were processed

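The submitters' processing notes name the build hg19 and, with no role, MACS2 2.1.2, Bowtie2 2.3.4, FastQC 0.11.7, bedtools 2.25.0 as well as SAMtools 1.9. Settings and duplicate handling are not given in the sources used here. Each of the deposited peak lists, called per ChIP sample against input per the file headers, gives a score, a fold ratio over background, −log10 p and −log10 q per summit. The authors' deposited table holds −log10 global IDR; 4 columns of per-sample values in it were not used.

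IDR entries sharing an interval counted as 1 region, placed by its midpoint. In each replicate the summit with the smallest p gave its values. Fragments and background were solved from fold (pseudocount 1) and Poisson p; 100% of summits gave whole fragments within 0.005 on −log10 p. Steps were tested on simulated data. Fragments were compared by exact binomial tests against the running median of 1001 regions of like height, with Benjamini-Hochberg adjustment over 25602 regions; this compares libraries, not conditions. Intervals are at the 95% level. Tools were SciPy 1.17.1, NumPy 2.4.6, pandas 2.3.3 and matplotlib 3.10.9 under Python 3.11.15.

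Members, lists and tests were chosen with earlier results of these data known. Named were the strongest and the nearest region of each locus and the 10 strongest overall. With no hg19 genome, summit sequences and other bZIP genes were not analysed here. Promoters come from RefSeq (GRCh38.p14, 9 of 10 members matched).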

Additional observations from a re-analysis of the deposited data

How the results depend on the processing

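In place of 46 reproducible regions there were 30 with IDR 0.01 as the limit, 30 in a window of 50 kb, 80 in a window of 200 kb (counted per locus, 2 of them under both FOS and BATF) and 138 summit pairs when both summits needed only a q-value up to 0.01. Leaving out a replicate and taking as many of the strongest intervals of the other gave 47 to 56. Summits with a partner made up 83.0% in replicate 1 and 72.3% in replicate 2 at a −log10 q of at least 5, which leaves fewer and stronger summits. Intervals in the IDR table were 17.3% and 15.2% with the stricter IDR. Shares over all summits or intervals are not given at these settings, so the loci are not compared with the series there. The 5 loci with a region within 5 kb of the start became 3 within 2 kb and 3 with the stricter IDR, and did not change when the start was moved by 500 bp. FOSB and FOSL1 were lost with the stricter IDR. The median fold of 15.9 became 19.6 with the stricter IDR, and 15.3 to 16.4 when a replicate was left out. The stricter IDR keeps higher-ranked peaks, so its higher median follows from the selection and tells nothing about these loci. The median locus exceeded 89.4% of bins, and 87.3% of bins with at least 1 summit. Regions with a neighbour numbered 6 within 5 kb, or 13.04% against 21.3% of all regions. The share was thus below that of all regions there and above it within 25 kb (73.9% against 57.4%). No intervals were computed for these shares, and the cause was not tested. The other 21 of 34 settings changed no value beyond its error or 1.5 times. The fewest fragments behind a region at the loci were 21 in replicate 1 and 36 in replicate 2; the effect of depth was not tested. No paired analysis was possible because input has no list of its own here, and ChIP was set against it only inside the peak calling.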

Other observations

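Between 100 and 200 kb from the 10 starts lay 34 reproducible regions, 17 per Mb, with a median mean fold of 14.8. The 2 on the far side of FOS are also within 100 kb of BATF and were counted there. JUND had 10 of them, FOSL1, JUN and MAFF 4 each, and BATF none. The strongest, 197.8 kb upstream of the JUND start (chromosome 19, 18589570 to 18590128), had 206 fragments in replicate 1 and 234 in replicate 2 over backgrounds of 1.84 and 3.43. Its fold of 55.1 ± 17.8 (SD, n = 2) ranked 63 of 25602 and was higher than that of any region inside the windows, and it was the 1 region of the 34 in the strongest 10%. FOSL1, with 1 weak region within 100 kb, had one 132.8 kb away (chromosome 11, 65534829 to 65535626) with 115 and 139 fragments and folds of 15.4 and 35.6 over backgrounds of 6 and 2.15. These regions were looked at after the values inside the windows were known, and none is assigned to a gene.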
